A study of Mus musculus with 10 samples.

Results

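Mouse embryonic stem (ES) cells with an extra chromosome 6 (Ts6) were compared here with ES cells with an extra chromosome 15 (Ts15), so that each line has the extra chromosome that the other lacks. The comparison rests on 4 of the 10 arrays of the series, chosen by their sample titles: 2 arrays of Ts6 (passages 9 and 18) and 2 of Ts15 (passages 11 and 14). The labels give 129 S7/SvEvBrd as the strain of both lines and say nothing of their sex, their parent line or how many clones they stand for. The remaining 6 arrays hold 2 samples each of diploid AB1 cells (WT, passages 18 and 20), of a trisomy 8 line (Ts8, passages 10 and 13) and of a trisomy 11 line (Ts11, passages 8 and 11). All cells were grown on irradiated SNL76/7 fibroblast feeders in serum medium and left to settle before lysis to deplete the feeders. The 2 samples of a line come from different passages, and no label says whether they were separate clones, so the tests measure the spread between these samples.

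As background, an extra chromosome raises the gene dose of everything it carries, and the transcripts of most of its genes rise with it unless the cell buffers them. ES cells in serum are a mixture: most hold the naive pluripotency network, while small fractions turn on programmes of primitive endoderm, of the primed epiblast and germ layers, or of a 2-cell-like state marked by Zscan4. Chromosome 6 carries Nanog, Dppa3, Ezh2 and the Hoxa cluster, and chromosome 15 carries Myc, Krt8, Krt18, Lifr and the Hoxc cluster.

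Ts6 and Ts15 were not hybridised side by side. WT, Ts6, Ts8 and Ts11 shared slide 1, and both Ts15 arrays were alone on slide 2, so for any direct difference Ts15 and its slide cannot be told apart. Each difference was therefore also split into Ts6 minus the mean of WT, Ts8 and Ts11, which lies within slide 1, and that mean minus Ts15, which crosses the slides; the 2 terms add up to the whole. Between 71.5% and 73.3% of the noncontrol spots were well above background on the 4 arrays, and no spot was saturated. Levels are log2 signal relative to the 75th percentile of the array, and differences are Ts6 minus Ts15 unless stated. A gene was called where limma's Benjamini-Hochberg adjusted p was under 0.05 over the 28193 genes tested, 4146 of them long intergenic noncoding RNAs (lincRNAs).

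Of the genes tested, 5133 were called (18.2%): 2918 were higher in Ts6 (10.4%) and 2215 were lower (7.86%). Among the called genes, 152 were above background on no array of either line, 134 of them higher and 18 lower. They were tested because another group had them above background. Above background on every array of both lines were 2271 of the higher and 1933 of the lower calls. Outside chromosomes 6, 15 and Y, 4428 of 25617 genes were called (17.3%), 2465 of them higher (9.62%) and 1963 lower (7.66%). A difference of at least 2-fold was reached by 1044 of the higher and 820 of the lower calls. Counts fell whichever array was left out, in fits where the line with 1 array is assumed to vary like the other groups: they were 1762 without Ts6 replicate 1, 2962 without Ts6 replicate 2, 2769 without Ts15 replicate 1 and 2179 without Ts15 replicate 2. Within slide 1, Ts6 differed from the other groups in 3351 genes (11.9%; 5.84% higher and 6.05% lower in Ts6). The difference between those groups and Ts15 took in 4031 genes (14.3%), of which those lower in Ts15 were 9.74% and those higher in Ts15 were 4.55% of all genes tested. Values in the deposited series table gave another balance, with 2096 higher and 2602 lower calls.

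The 2 extra chromosomes stood out from all others. The mean of chromosome 6 genes relative to the 15 autosomes that are trisomic in no line was -0.04 on both Ts6 arrays and -0.29 and -0.27 on the Ts15 arrays, while the 6 arrays of WT, Ts8 and Ts11 lay between -0.27 and -0.23. The difference of 0.24 (SD 0.0033 among Ts6 and 0.01 among Ts15 arrays, n = 2 each) corresponds to 1.18-fold, or 41.1% of the 0.58 that 3 copies against 2 would give on this scale. For chromosome 15 the Ts6 arrays were at 0.08 and 0.09, within the 0.07 to 0.11 of WT, Ts8 and Ts11, and the Ts15 arrays were at 0.33 and 0.31. The difference was -0.23, or 39.5% of the 3-to-2 value. Groups did not overlap for either chromosome, but 2 arrays against 2 allow no two-sided exact permutation p below 0.3333, which both reached. Several other chromosomes had separate arrays and the same p, such as 12 (array differences -0.058 to -0.038) and 13 (0.0368 to 0.0579). It is the size of the shift that set chromosomes 6 and 15 apart. The other 17 autosomes differed by -0.05 to 0.05.

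**Figure D1:**
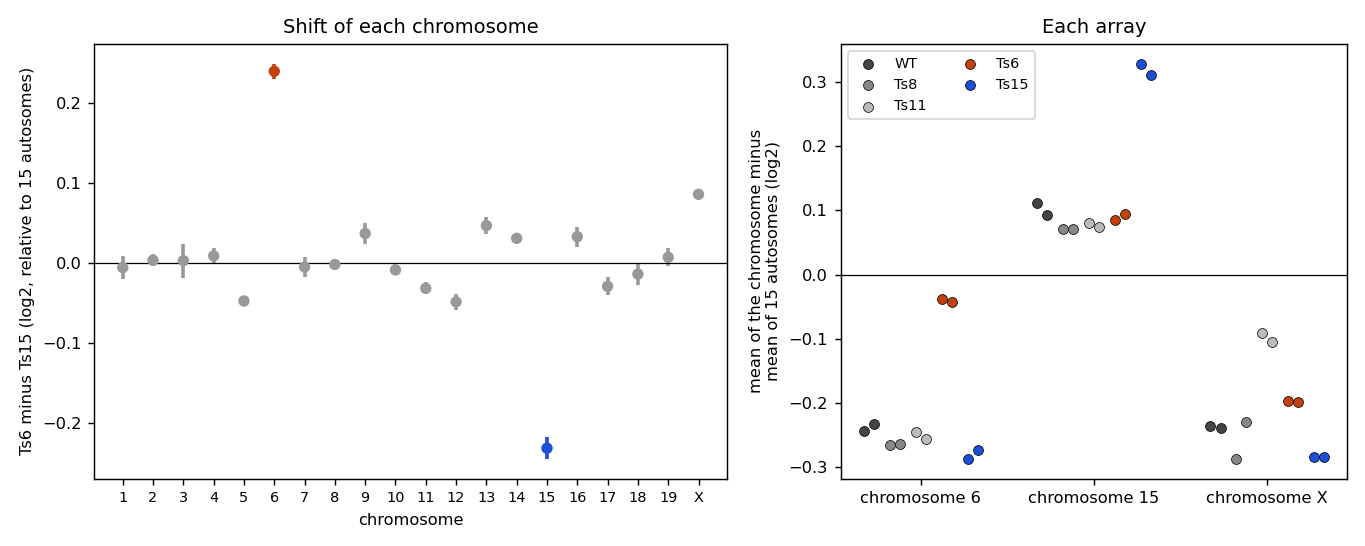
Left, mean log2 difference of each chromosome between Ts6 and Ts15, relative to 15 autosomes that are trisomic in no line; bars run from the lowest to the highest of the 4 differences between a Ts6 and a Ts15 array. Right, the level of chromosomes 6, 15 and X on each of the 10 arrays, with Ts6 alone near -0.04 on chromosome 6 and Ts15 alone above 0.3 on chromosome 15.

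Each shift was seen in the line with the extra copy. Chromosome 6 was 0.21 higher in Ts6 than in the other groups of slide 1 (exact permutation test of 2 against 6 arrays, two-sided p = 0.0357, the smallest this design allows), and those groups were 0.03 above Ts15 (exact permutation p = 0.0357). Chromosome 15 was 0.24 lower in those groups than in Ts15 (exact permutation p = 0.0357), and Ts6 differed from them by 0.0059 (exact permutation p = 0.6429). Because Ts6 and the other groups share a slide, the chromosome 6 value holds without a change of slide. For chromosome 15 the gain of Ts15 is measured across slides only, beside autosomes that moved by far less.

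Along chromosome 6 all 15 windows of 10 Mb had a median difference above 0, from 0.0017 to 0.48, and along chromosome 15 none of 11 did, with medians from -0.27 to -0.04. LincRNAs shifted less than the remaining genes against their own class on the reference autosomes: by 0.14 against 0.26 on chromosome 6, and by -0.15 against -0.25 on chromosome 15. That gap between the classes was not tested. Of the genes of chromosome 6, 26.6% were higher and 4.26% lower in Ts6 by call (388 and 62 of 1456, beside 10.4% and 7.86% of all genes). Of the 1105 genes of chromosome 15, 187 were lower (16.9%) and 64 higher (5.79%). Without 1 array the 388 became 137 (Ts6 replicate 1), 227 (Ts6 replicate 2), 216 (Ts15 replicate 1) or 172 (Ts15 replicate 2). The 187 became 55, 97, 71 and 74 in the same order, while the shifts of the chromosomes stayed between 0.23 and 0.25 and between -0.24 and -0.22.

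The highest gene of chromosome 6 was Asz1, which encodes an ankyrin-repeat protein of the germ cell piRNA pathway. Its level was -1.66 and -1.98 on the Ts6 arrays and -5.64 and -5.87 on the Ts15 arrays, a difference of 3.94 ± 0.19 (SE; adjusted p = 0.0002). WT and Ts8 lay between, from -4.74 to -3.96, and Ts11 was near Ts6 at -2.57 and -2.34, so both the step within slide 1 (1.94) and the step across slides (2.00) entered the difference. A2m, a secreted protease inhibitor, read -1.26 and -2.05 in Ts6 and -3.98 and -4.54 in Ts15 (difference 2.61 ± 0.38, adjusted p = 0.0041). Dppa3, a maternal factor of the Nanog locus that guards DNA methylation in the zygote, was at 0.58 and 0.07 in Ts6 and at -1.73 and -1.86 in Ts15 (difference 2.13 ± 0.35, adjusted p = 0.0069). Ts11 had as much of it as Ts6, at 1.02 and -0.02, while WT was lowest at -2.68 and -2.76. The Dppa3 call did not outlast leaving out Ts6 replicate 1 (adjusted p = 0.054). All 3 differences exceed the 0.58 of 3 copies against 2.

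The Asz1 probe is shown because it carries the largest chromosome 6 difference; it maps to chr6:18005508-18021991 of mm9 on the minus strand, a span of 16484 bases for a 60-base probe, so it lies across introns, and the array has no second probe for the gene.
Asz1 probe: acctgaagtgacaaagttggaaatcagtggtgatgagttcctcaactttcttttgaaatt

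Also among the highest on chromosome 6 were Fancd2os (2.09 ± 0.34), the bitter taste receptor gene Tas2r103 (2.09 ± 0.42) and Vps24, a subunit of the ESCRT-III membrane-cutting complex (1.77 ± 0.27). Tas2r103 was dim, above background on only 1 Ts15 array, and its call was lost without Ts6 replicate 1 or 2 (adjusted p = 0.0871 and 0.0513). Some chromosome 6 genes went the other way. Gkn2, a stomach mucosa gene, was at -4.64 and -5.83 in Ts6 against -2.75 and -1.59 in Ts15 (difference -3.07 ± 0.61), with a call that was lost without Ts6 replicate 2 or Ts15 replicate 2 (adjusted p = 0.0729 and 0.0848). Oxtr, the oxytocin receptor gene, was at -2.84 and -2.69 against -1.03 and -1.34 (-1.58 ± 0.19, adjusted p = 0.0019), and this whole difference lay within slide 1 (-1.58, with -0.0015 across slides). Tfec, a basic helix-loop-helix factor, was 1.64 ± 0.25 lower than in Ts15 but 0.86 higher than in the other groups of slide 1.

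A list of 51 known genes of chromosome 6 had 13 members higher, 4 lower and a median difference of 0.15, beside a median of -0.0006 over all genes tested and 26.6% of all chromosome 6 genes higher. The median was 0.07 without Ts6 replicate 1 and 0.09 without Ts15 replicate 2. Ezh2, the histone H3 methyltransferase of Polycomb, read 2.47 and 2.36 against 2.05 and 1.89 (0.44 ± 0.12, adjusted p = 0.0372). Braf, a kinase of the ERK pathway picked after its values were seen, was 0.93 ± 0.16 higher (adjusted p = 0.0079). Tead4, a partner of the Hippo co-activator Yap, was 1.06 ± 0.22 higher (adjusted p = 0.0154) and the Tudor-domain germ cell gene Stk31 1.21 ± 0.25 higher (adjusted p = 0.0174). Hoxa11 went down by call at -0.99 ± 0.27 (adjusted p = 0.0439).

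Not every locus followed its copy number. Nanog, the naive pluripotency factor, was at 4.87 and 4.84 in Ts6 and 5.18 and 4.98 in Ts15, so the line with 3 copies had the lower values (-0.22 ± 0.11, adjusted p = 0.1773). Its neighbours Gdf3 (0.21 ± 0.14) and Phc1 (0.07 ± 0.11) were not called, and neither were the glycolytic genes Gapdh (-0.11 ± 0.16) and Tpi1 (0.05 ± 0.12). Gapdh and Phc1 turned sign with the normalization or the probe used. The count of 13 fell to 2 without Ts6 replicate 1, 7 without Ts6 replicate 2, 5 without Ts15 replicate 1 and 3 without Ts15 replicate 2. Without Ts6 replicate 1, Ezh2, Tead4, Stk31 and Hoxa11 had adjusted p values of 0.193, 0.1, 0.0933 and 0.215; without Ts15 replicate 2 these were 0.179, 0.0854, 0.0865 and 0.0859. Ezh2 (0.0897 and 0.0727) and Stk31 (0.0693 and 0.0659) also lost the call without Ts6 replicate 2 or Ts15 replicate 1. Tead4 and Hoxa11 did so without Ts15 replicate 1 (0.0523 and 0.188).

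On chromosome 15 the lowest gene in Ts6 was Lypd2, a member of the Ly6 family of surface proteins, at -4.75 and -5.16 against -2.40 and -2.42 in Ts15 (difference -2.55 ± 0.21, adjusted p = 0.0005). The 6 arrays of WT, Ts8 and Ts11, from -5.04 to -4.33, were all far below Ts15. Cdh6, a cadherin of early kidney and neural crest, showed the same split, at -4.92 and -5.39 against -2.66 and -3.29 (-2.18 ± 0.23), with 0.0078 of it within slide 1. Otulinl (-1.84 ± 0.16) and the secreted matrix protein gene Cthrc1 (-1.92 ± 0.33) followed. Grhl2, a transcription factor of epithelia, was at 0.12 and 0.26 against 1.84 and 1.96 (-1.71 ± 0.16, adjusted p = 0.0009), with WT nearly as high as Ts15. Enpp2, which makes the lipid signal lysophosphatidic acid, was 1.74 ± 0.30 lower, a call lost without Ts6 replicate 1 or Ts15 replicate 2 (adjusted p = 0.0578 and 0.055).

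The known genes of chromosome 15 numbered 64, of which 17 were lower in Ts6 and 1 was higher, with a median of -0.33. Of all genes of chromosome 15, 16.9% were lower and 5.79% higher. Myc, a driver of growth and self-renewal, had 1.66 and 1.77 in Ts6 and 2.85 and 2.79 in Ts15 (difference -1.10 ± 0.18, adjusted p = 0.0065). Across slide 1 Myc ranged from 1.35 to 2.19, so the Ts15 arrays were the 2 highest of the 10. Krt8, the type II keratin of simple epithelia, was at 1.91 and 1.45 against 2.85 and 2.64 (-1.07 ± 0.24, adjusted p = 0.021), and its partner Krt18 differed by -0.63 ± 0.20 without a call (adjusted p = 0.0674). Osmr, a receptor chain of the LIF family, was 0.84 ± 0.23 lower (adjusted p = 0.0452), while the LIF receptor gene Lifr itself differed by -0.09 ± 0.15 at its brightest probe (adjusted p = 0.7119), and its 3 probes ran from -0.91 to -0.09. Sox10, a neural crest factor, was 1.22 ± 0.12 lower (adjusted p = 0.0009) and Cbx5, a heterochromatin protein, 0.57 ± 0.15 lower (adjusted p = 0.0419). The 2 probes of Cbx5 differed by -0.57 and 0.02. The cohesin gene Rad21 (-0.11 ± 0.11) and the focal adhesion kinase gene Ptk2 (-0.46 ± 0.16) were not called.

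Csmd3 (1.54 ± 0.24), Ccdc152 (1.37 ± 0.22) and the Wnt ligand gene Wnt10b (1.32 ± 0.25) were the highest in Ts6 on chromosome 15. Csmd3 and Wnt10b were above background on only 1 Ts15 array each, and neither exceeded the other groups of slide 1 (-0.01 and -0.29). Ccdc152 was highest of all in Ts11, at 0.13 and 0.02. The count of 17 became 6, 11, 6 and 9 without Ts6 replicates 1 and 2 and Ts15 replicates 1 and 2 in turn. Osmr lost its call without Ts6 replicate 1 (adjusted p = 0.241) or either Ts15 replicate (0.0638 and 0.213), and Cbx5 without any one array (0.176, 0.126, 0.165 and 0.11). Krt8 lost it without Ts6 replicate 2 (0.104) or either Ts15 replicate (0.0993 and 0.0682), and Wnt10b without either second replicate (0.0649 and 0.0755). For Myc the adjusted p was 0.0507 without Ts6 replicate 1.

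Outside the 2 extra chromosomes, the 8 highest named genes included some that were high in Ts6 alone. Nms, the neuropeptide neuromedin S, was at -2.43 and -2.42 in Ts6 and at -6.33 to -5.45 on the other 8 arrays, with a difference of 3.54 ± 0.17 from Ts15 (adjusted p = 0.0002). Tex13b, an X-linked testis gene, was bright in Ts6 at 1.60 and 1.66, against -1.27 and -1.84 in Ts15 and -0.14 or less elsewhere (3.18 ± 0.19, adjusted p = 0.0003). Tex18, another testis gene, differed by 2.91 ± 0.44, Tktl2, a relative of transketolase, by 2.66 ± 0.32, and the potassium channel gene Kcnh1 by 2.18 ± 0.34. Ccdc183 (2.21 ± 0.53) and Ccdc74a (2.19 ± 0.39) completed the top group together with the transcript that the array calls XIST (2.50 ± 0.68). Ccdc183 lost the call without either second replicate (adjusted p = 0.121 and 0.136), Ccdc74a without either first one (0.0659 and 0.0557), and XIST without Ts6 replicate 2 or either Ts15 array (0.145, 0.167 and 0.102).

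Some transcripts were well above background on both Ts6 arrays and on neither Ts15 array, for which a fold is a lower bound against the dimmest signal called present. The receptor tyrosine kinase gene Ros1 was at least 7.27-fold higher in Ts6, the lipid transporter gene Abca16 at least 5.30-fold, Ferd3l, a neural transcription factor gene, at least 4.54-fold and BRN1-A at least 3.92-fold. Ferd3l was at -4.72 to -4.50 in WT, Ts8 and Ts11, so most of its difference lay across slides (2.04, with 0.53 within slide 1). For BRN1-A the step within slide 1 was 1.86 and the step across slides 1.45. The 3 probes of BRN1-A did not move together, with differences from -0.42 to 3.31. The share of probes on the right side of the array differed between sets of calls. Of 161 genes outside chromosomes 6, 15 and Y that were at least 4-fold higher in Ts6 by call, 121 had their probe on the right side of the array and 18 were above background on all 4 arrays. Among all 2465 higher calls outside those chromosomes, 1066 had their probe on the right side. As a baseline, 15086 genes outside those chromosomes could be tested from right-side probes alone and 15134 from left-side ones. These gave 1220 and 1768 higher calls, so the large differences leaned to the right side and the higher calls as a whole did not. Of 126 genes that were at least 4-fold lower, 62 had it on the right side and 71 were above background on all 4. The part of array position in these differences was not tested, beyond calls made from probes of each side alone.

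Among the 8 lowest named genes, several were highest in Ts15. S100g, a vitamin D-dependent calcium-binding protein, was at -2.99 and -3.31 in Ts6 and 0.52 and 0.15 in Ts15 (-3.49 ± 0.33, adjusted p = 0.0009), with -3.10 to -1.95 in WT, Ts8 and Ts11. Adora1, the adenosine A1 receptor, was at -4.45 and -4.53 against -1.16 and -1.51 (-3.16 ± 0.15, adjusted p = 0.0002), with WT between them at -2.82 and -3.08. Aqp8, a water channel, differed by -2.56 ± 0.36, of which -2.19 lay across slides. WT, at -0.25 and -0.54, was nearer to Ts15 (0.92 and 0.67) for Aqp8 than Ts6 was (-1.70 and -1.83). Gtsf1l, related to a germ cell piRNA factor, was different in kind: Ts6 was at -0.62 and -1.28, whereas the other 8 arrays reached 0.60 to 2.20 (-3.08 ± 0.27 against Ts15, -2.29 within slide 1). Defa39, an intestinal defensin gene, was low in Ts6 (-5.44 and -5.27) and in Ts11 (-5.38 and -5.06) and high in Ts15 (-2.53 and -2.22). Of the bounds, Defa29 reached at least 8.83-fold below Ts15 and Slc23a1, a vitamin C transporter gene, at least 8.36-fold. The Defa genes of chromosome 8, counted after their values were seen, did not move together. Of 14 tested, 5 were higher and 4 lower in Ts6, beside 10.4% and 7.86% of all genes. Their differences ran from -3.57 to 1.15, with a median of 0.38. Probes of near-identical defensin genes can share signal, which these values do not separate.

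**Figure D2:**
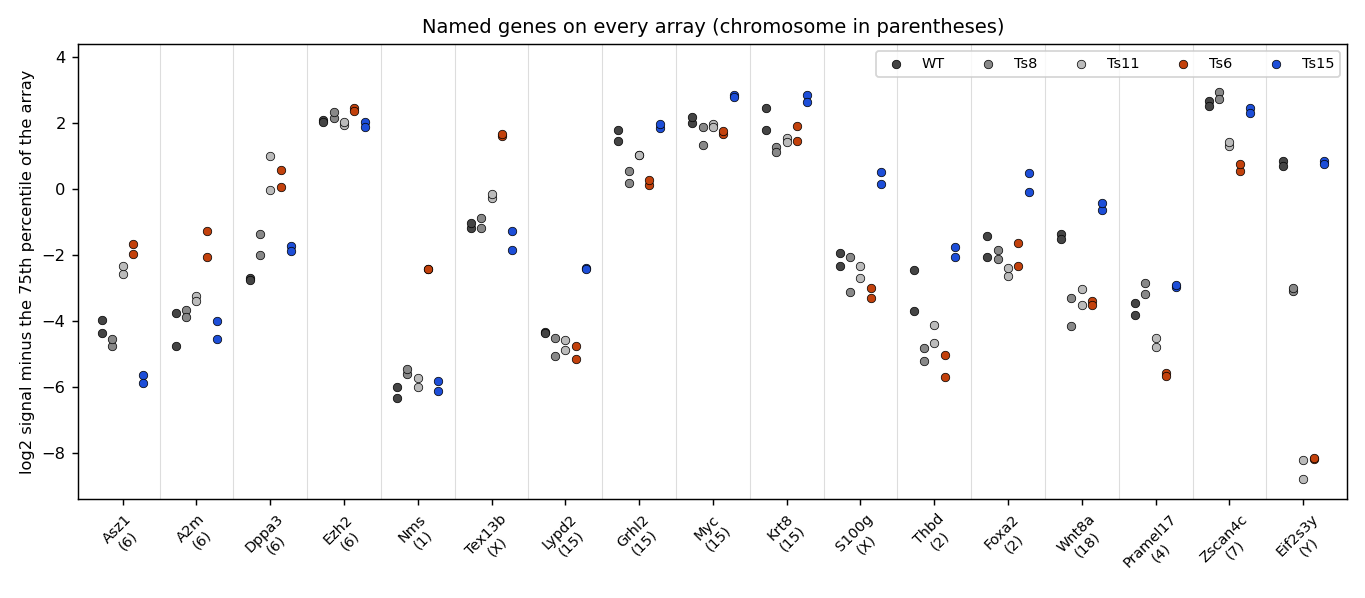
Log2 level relative to the 75th percentile of the array for 17 genes on all 10 arrays, 1 point per array, coloured by group, with the chromosome of the gene in parentheses. Ts6 stands alone for Nms and Tex13b, Ts15 stands alone for S100g, Lypd2 and Foxa2, and Eif2s3y is near -8 in Ts6 and Ts11.

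The 2-cell-like genes were lower in Ts6 nearly without exception: 23 of 26 tested were lower and 0 higher, with a median difference of -1.67. Over all genes 7.86% were lower and 10.4% higher. None of the 26 lies on chromosome 6 or 15. All 4 tested Zscan4 genes, zinc-finger genes that mark the state and act at telomeres, were lower, with a median of -1.59. Zscan4c was at 0.54 and 0.75 in Ts6, 2.46 and 2.30 in Ts15, 2.67 and 2.51 in WT, and 1.32 and 1.44 in Ts11 (difference from Ts15 -1.73 ± 0.13, adjusted p = 0.0005). Ts6 thus had the lowest 2 values of the 10 arrays. Pramel17, of a family of leucine-rich repeat proteins, was at -5.56 and -5.67 against -2.96 and -2.91 (-2.68 ± 0.17), and Pramel16 differed by -2.45 ± 0.21. Tcstv1 (-2.25 ± 0.26) and the deubiquitinase gene Usp17lb (-2.13 ± 0.21) were also among the lowest. Zfp352 (-0.17), Sp110 (-0.41) and Usp17la (0.14) were the 3 members without a call.

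This difference lay mainly within slide 1, where 23 of 26 were lower in Ts6 than in WT, Ts8 and Ts11 (median -1.37, beside 6.05% of all genes lower), while 6 of 26 were lower in those groups than in Ts15 (median -0.36). Per array the list median was -2.12 and -2.02 in Ts6, -0.14 and -0.24 in Ts15, and between -1.58 and 0.04 on the other 6. Ts11 was the lowest of these, at -1.58 and -1.10. The summed linear signal of the list was 111.4 and 105.1 in Ts6 and 172.7 and 160.2 in Ts15. On WT, Ts8 and Ts11 it ran from 105.8 to 156.8, so by this sum Ts6 overlapped the other arrays of slide 1. With any 1 array left out there were 21 to 23 lower calls. Cells of this state are a small fraction of an ES culture, and fewer such cells and less RNA per cell cannot be told apart in bulk RNA. Many of these genes are members of near-identical families, and the pair of Usp17l probes that follow shows how far probes can overlap, with the bases they share in capitals.
Usp17lc probe: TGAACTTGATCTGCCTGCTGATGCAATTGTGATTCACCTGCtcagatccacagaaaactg
Usp17ld probe: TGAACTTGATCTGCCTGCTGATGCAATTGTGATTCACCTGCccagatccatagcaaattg
Zscan4c probe: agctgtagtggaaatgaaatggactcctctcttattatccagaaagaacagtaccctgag

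The Usp17lc probe lies at chr7:110567420-110567479 (plus strand), the Usp17ld probe at chr7:110398772-110398831 (minus strand) and the Zscan4c probe at chr7:11594425-11594484 (plus strand), all in mm9. The Usp17lc and Usp17ld probes share a run of 41 bases, and their values were nearly the same on every array, with -2.30 and -2.33 against -2.26 and -2.22 in Ts6, and -0.69 and -0.62 against -0.60 and -0.52 in Ts15. They count as 2 of the 23 lower calls but cannot be taken as separate measurements. No other of the 325 pairs of probes of the list shared a run of 30 bases or more. Whether a probe also captures transcripts of relatives that it was not designed for was not tested.

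Primitive and visceral endoderm genes formed the second group. Of 25 tested, 21 were lower in Ts6 and 0 were higher, beside 7.86% and 10.4% of all genes, and the median difference was -1.28. Thbd, thrombomodulin, a surface protein of parietal endoderm, was at -5.03 and -5.70 in Ts6 and -2.05 and -1.77 in Ts15 (-3.46 ± 0.42, adjusted p = 0.0021), with WT at -2.45 and -3.69. Foxa2, a pioneer factor of endoderm, was at -1.64 and -2.33 against 0.50 and -0.09 (-2.19 ± 0.31, adjusted p = 0.0039), and the other 6 arrays were at -2.64 to -1.43. Pth1r, the parathyroid hormone receptor of parietal endoderm, was at -0.82 and -1.10 against 1.64 and 1.14 (-2.35 ± 0.21), and the proteoglycan gene Srgn at 0.60 and 0.11 against 2.50 and 2.27 (-2.03 ± 0.20). The main regulators of the lineage, named here after their values were seen, moved with them: Gata4 by -1.45 ± 0.17, Gata6 by -1.23 ± 0.22, Sox17 by -2.02 ± 0.27 and Sox7 by -1.20 ± 0.21. Apoa1 (0.15), Afp (-0.58), Hnf4a (-1.40) and Ttr (-2.04) were not called.

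In contrast with the 2-cell-like genes, this difference lay across the slides. Ts6 and the other groups of slide 1 differed in 3 of 25 members (all lower in Ts6, median -0.12), whereas 20 of 25 were lower in those groups than in Ts15 (median -1.06, beside 4.55% of all genes). Gata6, for one, was at 1.09 and 0.55 in Ts6, -0.17 to 0.57 in WT, Ts8 and Ts11, and 2.32 and 1.79 in Ts15. The summed linear signal of the list, in multiples of the 75th percentile of the array, was 50.8 and 47.0 in Ts6, 109 and 91.6 in Ts15 and 48.6 to 59.1 in the rest. Since Ts15 is alone on its slide, line and slide cannot be told apart for these genes. Feeder fibroblast markers, none of which is in this list, moved the same way with a smaller median of -0.58, and their part in the result was not tested. With any 1 array left out there were 17 to 20 lower calls.

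**Figure D3:**
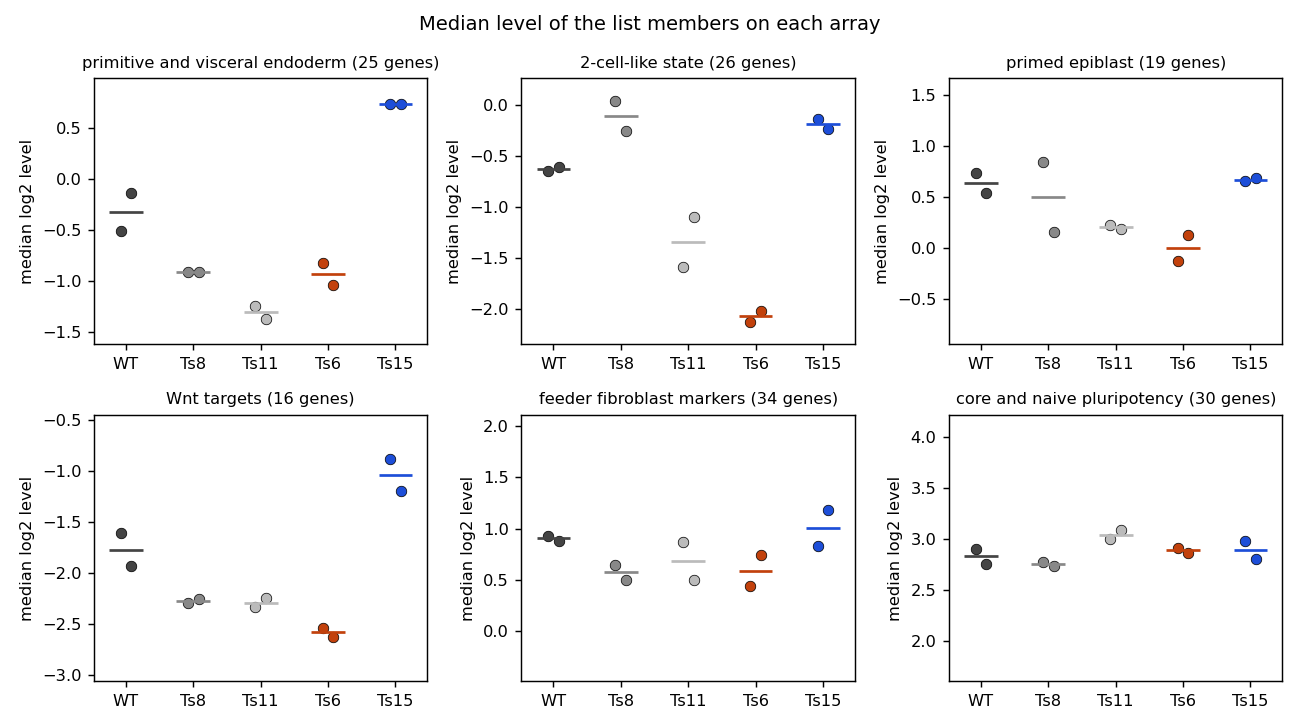
Median log2 level of the tested members of 6 gene lists on each array (points; lines are group means of 2 arrays; every panel spans the same range). Endoderm genes are highest in Ts15 at 0.73 and 0.74, 2-cell-like genes are lowest in Ts6 at -2.12 and -2.02, and pluripotency genes lie between 2.74 and 3.09 on all 10 arrays.

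Dab2, an endocytic adaptor of the visceral endoderm, is the only member of the endoderm list on chromosome 15, where Ts15 has 3 copies. It was at -0.76 and -0.36 in Ts6 and 0.98 and 0.83 in Ts15, a difference of -1.47 ± 0.18 (adjusted p = 0.002). Its promoter is shown because GATA factors bind core letters of this kind, here marked in capitals. The sequence is from RefSeq (GRCm38.p6), chr15:6299539-6299788 on the plus strand, the 250 bases before 1 of 2 annotated starts. That start was picked because its 250 bases hold such letters.
Dab2 promoter: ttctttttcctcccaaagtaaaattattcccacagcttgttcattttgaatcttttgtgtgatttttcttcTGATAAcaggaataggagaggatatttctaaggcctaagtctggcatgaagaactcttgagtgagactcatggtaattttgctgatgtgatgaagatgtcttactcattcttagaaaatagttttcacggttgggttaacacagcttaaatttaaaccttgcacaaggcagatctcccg

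AGATAA or TGATAA on either strand occurred in 3 of 15 endoderm genes with a promoter in that table (Dab2, Foxa2 and Hnf4a), beside 18.8% of 27025 genes in all. The letters were thus about as common in the list as elsewhere. A match is a description of these 250 bases and no evidence of binding.

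Genes of the primed epiblast and of the germ layers were lower in Ts6 in part. Of 19 primed genes 5 were lower and 1, Zic2, was higher, beside 7.86% and 10.4% of all genes, with a median of -0.61. The Wnt ligand gene Wnt8a had the largest difference, at -3.40 and -3.50 in Ts6 against -0.64 and -0.42 in Ts15 (-2.92 ± 0.27, adjusted p = 0.0008), with WT at -1.36 and -1.51 and Ts8 and Ts11 near Ts6. Pim2, a survival kinase, was at -0.52 and -0.65 against 1.00 and 1.04 (-1.60 ± 0.14, adjusted p = 0.0007). Sox3 (-0.98 ± 0.17) and Foxd3 (-0.95 ± 0.24), factors of the early epiblast and neural plate, were lower too. Sox3 lost the call without Ts15 replicate 2 (adjusted p = 0.0511), and Foxd3 without any one array (0.147, 0.109, 0.114 and 0.127). The lower count of 5 became 3 without Ts6 replicate 1, 3 without Ts15 replicate 1 and 2 without Ts15 replicate 2.

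Where 7.86% of all genes were lower and 10.4% higher, targets of Wnt signalling had 5 of 16 members lower, 0 higher and a median of -0.39. Beside Wnt8a these were Dkk1, a secreted Wnt inhibitor (-1.95 ± 0.29, adjusted p = 0.0048), the transcription factor gene Sp5 (-1.71 ± 0.21, adjusted p = 0.0023), Axin2, the feedback inhibitor of beta-catenin (-1.48 ± 0.14, adjusted p = 0.0009), and Ccnd1, cyclin D1 (-0.64 ± 0.18, adjusted p = 0.0456). Axin2 was at -4.45 and -4.66 in Ts6 and above -3.7 on the other 8 arrays, so its difference was already there within slide 1 (-1.03). Dkk1 was the opposite case, with 0.42 within slide 1 and -2.37 across slides. Ccnd1 lost the call without Ts6 replicate 1 (adjusted p = 0.219), Ts15 replicate 1 (0.0788) or Ts15 replicate 2 (0.207).

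Mesoderm and primitive streak genes had 5 of 17 lower and 1 higher (median -0.48, or -0.29 without Ts6 replicate 2), beside 7.86% lower and 10.4% higher over all genes. Evx1 (-1.13 ± 0.18), the epithelial-to-mesenchymal factor Snai1 (-0.91 ± 0.15) and the ligand gene Fgf8 (-0.60 ± 0.14) were lower and Tbx6 (0.51 ± 0.10) was higher. Evx1 is on chromosome 6 and was lower in the line with 3 copies. The lower count was 3 without any one of the 4 arrays; Fgf8 lost its call in each case (adjusted p = 0.109, 0.0932, 0.103 and 0.0809), and Tbx6 without Ts6 replicate 1 or either Ts15 array (0.0989, 0.0536 and 0.072). Neuroectoderm genes had 3 of 16 lower, namely Nes (-0.77 ± 0.17), Neurod1 (-0.77 ± 0.15) and Sox11 (-0.72 ± 0.17), and 1 higher, Dcx, against the same shares of all genes; the median was -0.12, or -0.21 without Ts6 replicate 2. Nes and Neurod1 were lower in Ts6 than in the other groups of slide 1 by 1.20 and 1.24, more than against Ts15. The 3 became 1, 2, 1 and 0 as Ts6 replicates 1 and 2 and Ts15 replicates 1 and 2 were left out.

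Trophectoderm genes were split, with 7 of 20 lower and 4 higher (median -0.52), where 7.86% and 10.4% of all genes were. Within slide 1, 1 was lower and 4 higher in Ts6 (median 0.10), beside 6.05% and 5.84% of all genes. Across slides, 9 were lower in WT, Ts8 and Ts11 than in Ts15 and 0 higher (median -0.46), beside 4.55% and 9.74%. For that step line and slide cannot be told apart. Cdx2, the master factor of the lineage, was at -4.09 and -4.47 in Ts6 and -2.58 and -2.53 in Ts15 (-1.73 ± 0.28, adjusted p = 0.0064). Ascl2, a factor of the placental spongiotrophoblast, differed by -1.18 ± 0.27 (adjusted p = 0.0234), a call lost without any one array (0.136, 0.0632, 0.0798 and 0.108). Krt8 and Tead4, described above with their chromosomes, were lower and higher. Tpbpa, a spongiotrophoblast marker named here after its values were seen, was above background only on the Ts6 arrays, at -4.51 and -5.54 against -9.12 to -8.24 elsewhere. The 7 became 3, 5, 2 and 2, and the 4 became 1, 2, 2 and 1, when the arrays were left out in the same order.

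Few pluripotency genes were called. All 30 core and naive pluripotency genes were above background on the 4 arrays, 28 had no call, and their median difference was 0.0027 (0.13 under quantile normalization), with 6 of 30 at an unadjusted limma p under 0.05. Dppa3 was the higher call and Tdh, threonine dehydrogenase, the lower one (-0.68 ± 0.12, adjusted p = 0.0105); Tdh lost its call without Ts6 replicate 2 or Ts15 replicate 1 (0.0603 and 0.0604). The list median was 2.92 and 2.86 on the Ts6 arrays and 2.99 and 2.80 on the Ts15 arrays. A missing call does not show that levels were equal.

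Of 9 Y-linked genes tested, 3 were called, all lower in Ts6, beside 7.86% lower and 10.4% higher over all genes. Eif2s3y, a translation initiation factor, was at 0.85 and 0.77 in Ts15, 0.84 and 0.70 in WT, and -8.18 and -8.14 in Ts6, where it was not above background; this is at least 105-fold lower (adjusted p = 1.5e-06). Ddx3y, an RNA helicase, was at -8.14 and -8.12 in Ts6 against -0.72 and -0.86 in Ts15, at least 34.7-fold lower (adjusted p = 2.3e-05). Ts11 was as low as Ts6 for both genes, and Ts8 was in between, at -3.08 and -2.99 for Eif2s3y. Uty, a histone demethylase gene, was lower by call too (-2.34 ± 0.19), although it was above background on only 1 Ts15 array. Of the other Y-linked probes, Zfy1 (-2.36 ± 0.69) and Rbmy (-2.74 ± 1.11) were not called. Sry (0.14 ± 0.17), Ube1y1 (-0.53 ± 0.17), Zfy2 (-0.13 ± 0.23) and Ssty1 (-0.35 ± 0.17) had signal in both lines and no call. The brighter of 2 Ube1y1 probes stands for that gene, at 1.39 and 1.32 in Ts6 and 2.02 and 1.75 in Ts15; its other probe differed by -5.59.

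Among 7 X-linked partners of Y genes, Eif2s3x alone was called, a share near the 18.2% called over all genes. It was at 1.30 and 1.05 in Ts6 and 2.58 and 2.48 in Ts15 (-1.35 ± 0.15, adjusted p = 0.0016). WT, which has the Y copy, was at 2.18 and 2.30, and Ts8 and Ts11 were at 0.54 to 1.18, so the brighter arrays of this X-linked probe were those with full signal for Eif2s3y. A second Eif2s3x probe differed by 0.08. The probe that gave the call is shown because of this split; it spans chrX:91436226-91441634 of mm9 on the minus strand, and the longest run it shares with the Eif2s3y probe is 5 bases. Whether it captures the Y-linked transcript was not tested.
Eif2s3x probe: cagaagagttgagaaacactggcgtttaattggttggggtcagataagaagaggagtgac

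Among 1122 genes of chromosome X, 140 were higher (12.5%) and 82 lower (7.31%), near the 10.4% and 7.86% of all genes. As a whole the chromosome was 0.09 higher in Ts6 than in Ts15 (array means -0.20 and -0.20 against -0.28 and -0.29, relative to the reference autosomes). The other 6 arrays ran from -0.29 to -0.09, with Ts11 highest, and the difference of Ts6 from their mean was 3.77e-05 (exact permutation p = 1). Xist, the RNA that silences an X chromosome in female cells, was at 0.21 and 0.20 in Ts6 and 0.28 and -0.16 in Ts15 (0.15 ± 0.29, adjusted p = 0.7495). The dimmer probe that the array calls XIST, on the same strand and near by, differed by 2.50 as given above. Its antisense partner Tsix was -5.15 and -5.04 against -5.23 and -5.30 (0.17 ± 0.27, adjusted p = 0.6843).

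Imprinted genes, which are expressed from 1 parental copy, had 8 of 36 members lower and 4 higher (median -0.31), beside 7.86% and 10.4% of all genes; the higher share is near that of all genes. Cdkn1c, a cell cycle inhibitor, was at 0.61 and 0.76 in Ts6 and 1.96 on both Ts15 arrays (-1.27 ± 0.13, adjusted p = 0.001). H19, a noncoding RNA of the Igf2 domain, was at 2.00 and 1.62 against 3.08 and 2.85 (-1.16 ± 0.16, adjusted p = 0.0039), and Magel2 differed by -1.19 ± 0.18 (adjusted p = 0.0049). On chromosome 6 the imprinted genes did not move together: Ppp1r9a was 1.08 ± 0.23 higher (adjusted p = 0.0179), while Mest (-0.70 ± 0.11) and Peg10 (-0.85 ± 0.17), named here after their values were seen, were lower in the line with 3 copies. The 8 lower calls became 4, 5, 5 and 5 and the 4 higher calls 0, 2, 0 and 1 as each array was left out in the order given before, and Ppp1r9a lost its call each time (adjusted p from 0.0693 to 0.0964).

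Germ cell and piRNA genes had 3 of 27 higher, 3 lower and a median of 0.01, near the 10.4% and 7.86% of all genes, with Asz1, Stk31 and the testis bromodomain gene Brdt (1.12 ± 0.23) higher and Tex101 (-1.15 ± 0.20) lower. Brdt lost its call without Ts6 replicate 1 (adjusted p = 0.104) or either Ts15 replicate (0.0818 and 0.0676). Without 1 array the 3 higher and 3 lower calls became 1 and 2, 2 and 1, 1 and 1, and 1 and 1.

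Lists of general cell function had few calls, near or below the 18.2% called over all genes. Not one of the tested genes of the respiratory chain (30), cholesterol synthesis (23), the proteasome (30) or DNA replication (32) was called by limma, and 3, 3, 0 and 2 of them in that order had an unadjusted p under 0.05. Cholesterol genes had a median of 0.33, with 87.0% of members above 0 beside 49.9% of all genes tested; leaving out Ts6 replicate 1 gave a median of 0.16, and leaving out Ts6 replicate 2 gave 0.51. Glycolysis and hypoxia had 1 of 29 higher (Pfkp, 0.53 ± 0.15), the ribosome 2 of 37 lower (Rplp0, -0.39 ± 0.11, and Rpl30, -0.36 ± 0.10) and chaperones 2 of 25 lower (Hspa1a, -0.75 ± 0.18, and Bag3, -0.46 ± 0.10). Mitosis genes had Mad2l1, a spindle checkpoint gene of chromosome 6, higher (0.55 ± 0.14) and Cdk1 lower (-0.47 ± 0.11), of 29. The 3 probes of Cdk1 ran from -0.59 to 0.19, and the 2 of Pfkp were at -0.06 and 0.53. P53 targets had 1 of 24 lower (Perp, -0.79 ± 0.13). Without Ts6 replicate 1 or without Ts15 replicate 2 no ribosome, chaperone, mitosis or glycolysis gene was called in the direction given.

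Calls among stress and signalling genes are read beside the 10.4% higher and 7.86% lower of all genes. Of 29 genes of the unfolded protein and amino acid response 3 were lower: Atf3 (-1.14 ± 0.23), at 1.21 and 0.74 in Ts6 against 2.21 and 2.03 in Ts15, Ddit3 (-0.81 ± 0.18) and Phgdh (-0.52 ± 0.14). The 3 fell to 1, 0, 0 and 1 as arrays were left out. ERK targets had 3 of 18 lower (Myc, Ccnd1 and Etv5, -0.75 ± 0.11), LIF and Stat3 targets had 1 of 18 higher (Pramel7, 1.25 ± 0.26) and 1 lower (Osmr), and Nodal signalling had 1 of 16 lower (Cfc1). The network of Myc had 1 of 25 higher (Mga, 0.71 ± 0.18) and 3 lower, which were Myc, Bop1 (-0.49 ± 0.11), also on chromosome 15, and Fbl (-0.42 ± 0.12). Interferon genes had Usp18 (0.62 ± 0.11, on chromosome 6) and Oasl1 (0.76 ± 0.21) higher and Tap1 (-0.69 ± 0.15) and Ifitm1 (-0.78 ± 0.22) lower, of 28. Lysosome genes had 3 of 26 lower, among them the protease genes Ctsl (-0.55 ± 0.12) and Ctsa (-0.51 ± 0.14). Leaving out 1 array ended most of these calls: without Ts6 replicate 1 the ERK targets had 1, and the Myc, interferon and lysosome lists 0. Without Ts15 replicate 2 the ERK targets had 2, the Myc and interferon lists 1 each, and the lysosome list 0.

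Markers of the feeder fibroblasts had 5 of 34 lower in Ts6 and 0 higher, with 5.9% of members above 0 and a median of -0.58. Of all genes tested 7.86% were lower, 10.4% were higher and 49.9% were above 0. Col5a2 (-1.09 ± 0.30), the mesenchymal factor gene Twist1 (-0.84 ± 0.15), Fstl1 (-0.78 ± 0.13) and smooth muscle actin Acta2 (-0.70 ± 0.15) were among the 5. Twist1 was at 0.82 and 1.16 in Ts6 and 1.74 and 1.92 in Ts15. The summed signal of the list, in multiples of the 75th percentile, was 97.9 and 116 in Ts6, 135 and 148 in Ts15 and 104 to 129 on the other arrays, so the 4 arrays did not overlap. No feeder marker was called without Ts6 replicate 1 (median -0.32) or without Ts15 replicate 2 (median -0.35).

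**Figure D4:**
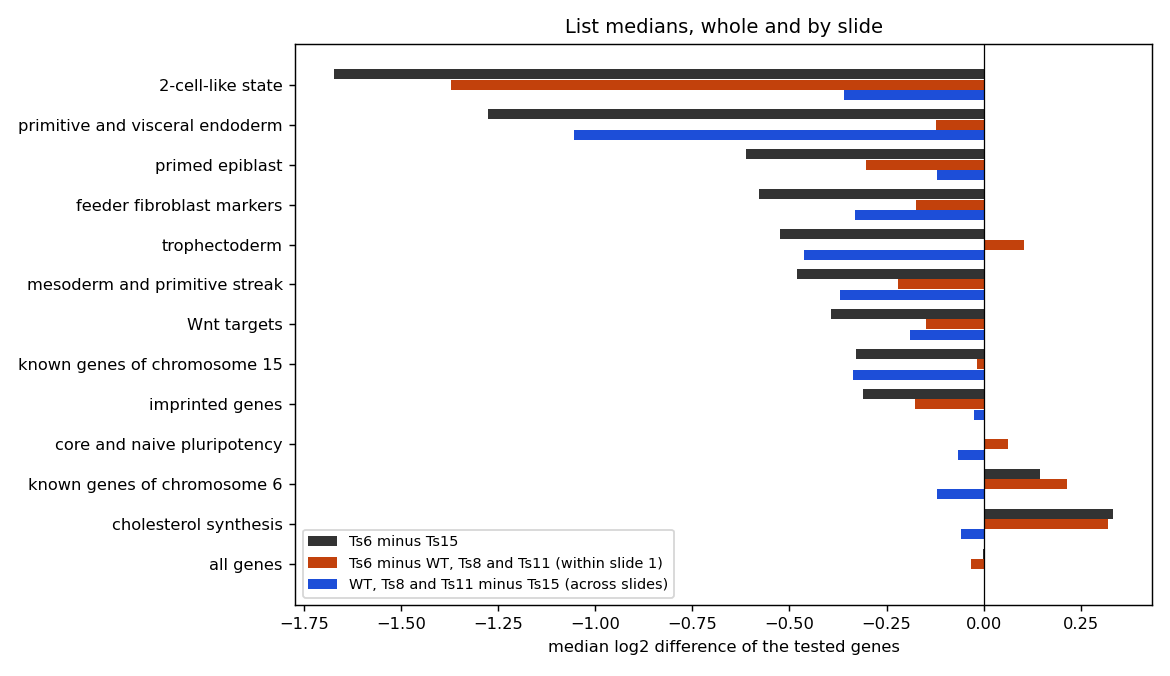
Median log2 difference of the tested members of 12 gene lists and of all genes, for Ts6 minus Ts15 and for its 2 terms, the one within slide 1 and the one across slides (medians of the terms need not add up). The 2-cell-like list moves within slide 1 (-1.37), and the endoderm list moves across slides (-1.06).

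Brightness moved with the direction of the calls. Outside chromosomes 6, 15 and Y the dimmest of 3 classes of genes by mean level had a median difference of 0.16, with 16.7% higher and 6.88% lower in Ts6. The brightest class had a median of -0.07, with 2.23% higher and 6.71% lower. Across slides the medians of these 2 classes were 0.21 and -0.09, and within slide 1 they were -0.11 and 0. The part of this trend in the calls was not tested. Within the dimmest, middle and brightest classes, chromosome 6 was shifted by 0.17, 0.31 and 0.21 and chromosome 15 by -0.22, -0.25 and -0.22 against the same class of the reference autosomes. The 2 chromosome shifts were thus present at every level.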

How the data were processed

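RNA of each sample was amplified, labelled with Cy3 and hybridised to 1-colour Agilent arrays, per the labels' protocols. The deposited scanner files hold background-subtracted intensity values made by the authors with Agilent Feature Extraction 10.7.3.1, per the file headers, with probe positions in mm9. The deposited series table of log2 values served as an alternative. One Ts15 file (replicate 2) had been saved from a spreadsheet, with values of 3 significant digits and 58 altered gene names.

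Each log2 processed signal was set against its array's 75th percentile, taken over noncontrol probes. Of 55681 probes, 176 were flagged as outliers; a probe was kept if 1 or more groups had it well above background in both replicates, and the brightest probe stood for a gene. Names were updated through RefSeq for 26762 of 28390 accessions. One linear model over all 10 arrays, with 1 mean per group and no covariate, was fitted with limma 3.58.1 (R 4.3.3) and checked on simulated data; p-values were adjusted by Benjamini-Hochberg over all genes, with a threshold of 0.05. Chromosome shifts were compared by exact permutation over arrays, two-sided. Figures used Python 3.11.15 and matplotlib 3.10.9.

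The members and gene lists were chosen with earlier results of these data known. Genes were named by a rule: among called genes with a full symbol, detected on 1 or more arrays of both lines and with separate arrays, the 8 highest and 8 lowest outside chromosomes 6, 15 and Y, the 6 highest on 6 and 6 lowest on 15, 3 on each in the opposite direction, 4 bounds each way, up to 4 called members of a list, and a set of fixed genes; others are marked where named. Same-numbered replicates are not stated to share a batch, and the correlation of their deviations was 0.206 over only 2 pairs, so the numbers were not taken as pairs. Alternatives covered the arrays fitted, normalization, background, filter, probe choice, replicate block, passage, each replicate left out, array side and slide. Results for some genes are not reported here.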

Additional observations from a re-analysis of the deposited data

How the results depend on the processing

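The 2 arrays of each line, and the single slide of Ts15, limit precision most, and genes near background are the least certain. Leaving out 1 array gave 1762 to 2962 calls in all and 1517 to 2559 outside chromosomes 6 and 15. Probes of the left side of the array gave 3344 calls (2862 outside those chromosomes) and those of the right side 2649 (2295); both settings test fewer genes. Ts6 against the other groups of slide 1 gave 3351 (2847 outside), with a chromosome 6 shift of 0.21 (exact permutation p = 0.0357) and a chromosome 15 shift of 0.0059 (exact permutation p = 0.6429). Those groups against Ts15, an alternative chosen after seeing the data, gave shifts of 0.0285 and -0.237 (exact permutation p = 0.0357 for both). With the replicate number as a block there were 5352 calls (3029 higher, 2323 lower), and 121 of 129 named genes kept direction and call, 7 lost and 1 gained one. The deposited series table gave 2096 higher and 2602 lower calls. Signs turned under quantile normalization for Tsix (-0.0037) and Gapdh (0.0239), under normexp for Phc1 (-0.0255), in the deposited table for Tsix (-0.0453), and with the mean of all probes for Phc1 (-0.12) and Gapdh (0.079). They turned without Ts6 replicate 1 for Tpi1 (-0.0101), without Ts6 replicate 2 for Zfy2 (-0.4182 to 0.1613 over the 4 arrays left out) and Lifr (-0.2163 to 0.0338), and without Ts15 replicate 2 for Xist (-0.0721 to 0.3667) and Tpi1 (-0.0117). On the left side they turned for Cdk1 (0.19), Phc1 (-0.30) and Gapdh (0.25), and on the right side for Pfkp (-0.0606) and Cbx5 (0.0221). Against the other groups of slide 1 they turned for Cdh6 (0.0078), Tfec (0.86), Wnt10b (-0.29), Csmd3 (-0.0109), Bop1 (0.0397), Dkk1 (0.42), Hspa1a (0.15), Rplp0 (0.0378), Foxa2 (0.0929), Krt8 (0.0774), Xist (-0.20), Tsix (-1.13), Gapdh (0.36), Lifr (0.025), Krt18 (0.11) and Rad21 (0.0147). The cause was not tested, except that the slide settings compare other groups, and the values by side come from other probes of the same genes. Of 1403 called genes with several probes, 338 (24.1%) had probes of opposite sign.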

Other observations

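Counts were made for more gene families than the 2 given here, all chosen after their values were seen, so these 2 are a selection. The family counts were not repeated by slide or with an array left out. The Rhox homeobox genes of the X chromosome, which are known from reproductive tissue, had 6 of 17 members higher in Ts6, 0 lower and a median of 0.40, beside 12.5% of all X-linked genes and 10.4% of all genes higher. Of the Hoxc cluster on chromosome 15, 0 of 8 were called by limma in either direction, 4 had an unadjusted p under 0.05, and the median was -0.16.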
